A study of Mus musculus with 2 samples.

Results

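AW112010 is a mouse long non-coding RNA gene, listed in the files as ENSMUSG00000075010, and it is 1 of the 27998 genes that both count matrices list. It was chosen by its measured values in these cells, where it stood among the genes with the largest difference between the genotypes, so its levels and its correlations are given as a description, with no test. Each library was read at the row with this symbol, and every other gene was set against it cell by cell.

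AW112010 is annotated as a long intergenic non-coding RNA, and its transcript rises in macrophages and T cells that meet interferon or bacterial products. It has been reported to be translated from a non-canonical open reading frame in activated macrophages, in work that tied it to Il12b, and to restrain Il10 in T cells through the histone demethylase Kdm5a. Type I interferons switch on antiviral genes such as Rsad2 and the Ifit family, and interferon gamma switches on guanylate-binding proteins, Cxcl9 and the machinery of antigen presentation.

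The cells were tumor mononuclear phagocytes (TMPs), sorted as MerTk+ CD64+ cells from B16 melanoma, a transplantable mouse skin tumor line, grown in C57Bl/6 mice that were either Fcmr+/+ or Fcmr-/-. Fcmr is the putative receptor for soluble IgM, and the Fcmr-/- mice lacked it in all their cells. Each genotype gave 1 droplet-based single-cell library, the sources used here do not say how many mice went into each, and no sample was treated with interferon. The question was how the loss of Fcmr changed the states of these phagocytes.

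After the limits on genes and mitochondrial transcripts, 6352 Fcmr+/+ cells and 7999 Fcmr-/- cells remained, with 128408544 and 124630621 unique molecular identifiers (UMIs, 1 per captured transcript). The Fcmr+/+ cells were deeper, with a median of 17974 UMIs per cell against 12911. The Fcmr transcript was nearly undetected in both libraries, with 7 UMIs in the Fcmr+/+ library and 6 in the Fcmr-/- library, so it could not check the genotype labels. All 10 genes of a macrophage marker list were detected in both libraries, and together they made up 17665 and 17531 CPM (UMIs per 1000000 UMIs of the library). The libraries shared 73 cell barcodes. Because each genotype is 1 library, its effect cannot be told apart from any other difference between the libraries, and the variation among mice was not measured. Exact 95% intervals are given, by Poisson for CPM and by Clopper-Pearson for a share of cells, and both cover counting error only.

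On the GRCm38 genome, AW112010 lies on the minus strand of chromosome 19 from 11047612 to 11055808, and 0 other annotated genes overlap it. The annotation holds 2 transcripts of 3 exons each, with spliced lengths of 770 and 625 bases. They differ in their first exon, and their 3′ ends lie 5 bases apart, so these 3′ counts cannot separate them. The promoter of the shorter-spanning transcript is shown because AW112010 varied so widely between cells. It covers chr19:11050517-11050816 on the minus strand of GRCm38.p6, 250 bases before the RefSeq start and 50 after it, printed 5′ to 3′ with a match to an NF-kB motif in capitals.
AW112010 promoter: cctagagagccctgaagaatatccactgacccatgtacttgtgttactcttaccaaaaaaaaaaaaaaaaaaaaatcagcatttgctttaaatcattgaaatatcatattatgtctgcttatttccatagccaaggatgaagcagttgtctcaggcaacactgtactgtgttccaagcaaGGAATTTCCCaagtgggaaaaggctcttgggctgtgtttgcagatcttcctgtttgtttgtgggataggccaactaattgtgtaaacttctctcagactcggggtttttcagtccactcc

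The capitals match the kappaB motif, searched as GGG, any 3 bases and TTCC, when read on the opposite strand, and begin 70 bases before the start. Of 32851 RefSeq promoters of the same length, 5.56% hold these letters on either strand. The window held 0 matches on either strand to TTCNNNGAA, the letters of the gamma-interferon-activated site, which occur in 8.30% of promoters. It also held 0 matches to the interferon-stimulated response element, searched as GAAA, any 2 bases and GAAA (3.44% of promoters), to the Ets-Irf composite element, searched as GGAA, any 2 bases and GAAA (2.72%), to the AP-1 letters TGANTCA (7.81%) and to TATAAA (13.6%). These are descriptions of 1 window, and sites outside it were not searched.

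AW112010 was higher in the Fcmr-/- library. Its 6341 UMIs in Fcmr+/+ cells were 49.4 CPM (interval 48.2 to 50.6), and its 36440 UMIs in Fcmr-/- cells were 292 CPM (interval 289 to 295). The log2 ratio of Fcmr-/- to Fcmr+/+ was 2.54, a 5.82-fold difference after 1 CPM was added to each value. Among 2819 genes with at least 50 CPM in either library, this was the 5th highest ratio, after Iigp1, Cxcl9, Ly6a and Gbp2, all of them genes that interferons induce. The next gene was Slamf8, at 2.03. At least a 2-fold higher level in Fcmr-/- cells was found for 0.887% of these genes, and the median log2 ratio over all of them was 0.00.

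The share of cells with AW112010 also differed. At least 1 UMI was found in 2327 Fcmr+/+ cells, 36.6% (interval 35.4 to 37.8), and in 4690 Fcmr-/- cells, 58.6% (interval 57.5 to 59.7), although the Fcmr-/- cells were shallower. When every cell was thinned at random to 5000 UMIs, which left out 0 cells, the shares were 15.2% (interval 14.3 to 16.1) and 41.1% (interval 40.0 to 42.1). At least 3 UMIs were then found in 1.83% of Fcmr+/+ cells and 15.5% of Fcmr-/- cells. No cell type that lacks AW112010 was available in this sort to measure the share that free RNA gives.

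Within each library AW112010 was spread unevenly over the cells. The median Fcmr+/+ cell had 0 UMIs and the highest had 169, and the 10% of cells with the most AW112010 held 68.1% of its UMIs. The median Fcmr-/- cell had 1 UMI and the highest had 164, and the top 10% of cells held 62.6%. In thinned cells the variance was 7.24 times the mean in the Fcmr+/+ library and 6.73 times the mean in the Fcmr-/- library, where counting error alone would give a value near 1. The 2 libraries thus held cells with similar highest counts, and they differed in how many cells carried intermediate and high counts. Thinned cells with 10 or more AW112010 UMIs numbered 18 in the Fcmr+/+ library and 206 in the Fcmr-/- library.

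**Figure D1:**
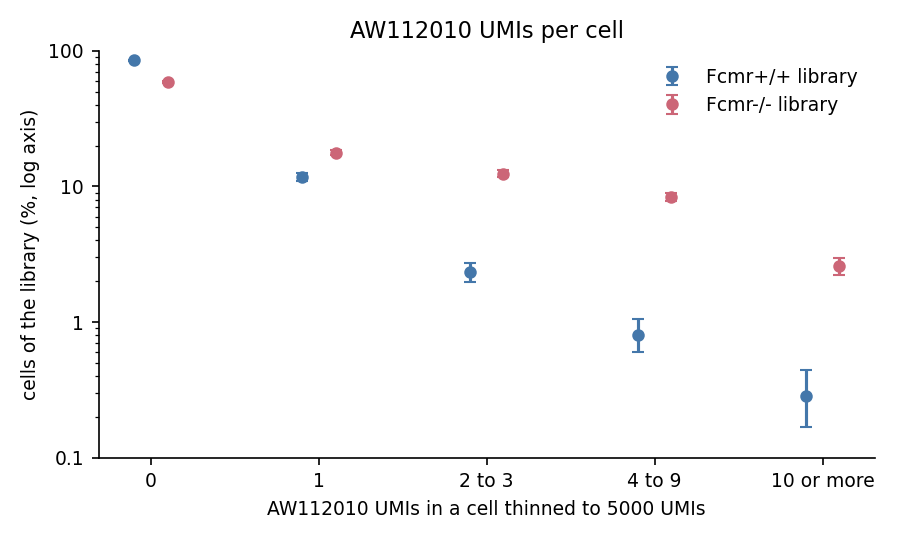
The share of each library's cells (percent, log axis) by the number of AW112010 UMIs in the cell after thinning to 5000 UMIs, with exact 95% intervals. The Fcmr+/+ library holds more cells at 0 UMIs (84.8% against 58.9%), and the Fcmr-/- library holds more in every class above 0.

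The difference was present in cells with few and with many total UMIs. Cells of both libraries were divided into 4 groups by their total UMIs. In the shallowest group AW112010 was at 74.7 CPM in Fcmr+/+ cells and 207 CPM in Fcmr-/- cells, a log2 ratio of 1.46. The ratio was 1.96 in the next group and 2.76 in the one after it. In the deepest group the levels were 45.1 and 339 CPM, a log2 ratio of 2.88. The level moved with total UMIs in opposite directions, down in Fcmr+/+ cells and up in Fcmr-/- cells. Median total UMIs also differed between the clusters described next, and the part of cell states in this was not tested.

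To see in which states AW112010 was expressed, cells of both libraries were clustered together with AW112010 itself left out of the variable genes, which gave 11 clusters numbered by size. A cluster was named only where at least 3 markers of a fixed list were among its 10 leading genes, and the leading genes define the clusters and are not results. AW112010 was highest in clusters led by interferon-induced genes. In Fcmr-/- cells it reached 677 CPM in cluster 9 (interferon gamma-responsive-like, led by Iigp1, Serpina3g, Cxcl9, Gbp2 and Fam26f). It had 408 CPM in cluster 2, led by Ly6c2, Ly6a, Il18bp, Slamf8 and C3, and 405 CPM in cluster 10 (type I interferon-high-like, led by Rsad2, Ifit1bl1, Cmpk2, Ifit3 and Ifit1). The intervals of clusters 2 and 10 overlapped, and that of cluster 9 lay above both.

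In Fcmr+/+ cells the same 3 clusters stood highest. AW112010 was at 359 CPM in cluster 2 (interval 333 to 387), 301 CPM in cluster 9 (interval 269.8 to 335) and 202 CPM in cluster 10 (interval 186 to 219), and the first 2 intervals overlapped. Only 101 Fcmr+/+ cells lay in cluster 2 and 44 in cluster 9, against 1584 and 916 Fcmr-/- cells. Those 2 clusters were 94.0% and 95.4% Fcmr-/- cells and held 29.0% and 36.6% of all AW112010 UMIs of the Fcmr-/- library. A cluster drawn almost wholly from 1 library may stand for that library rather than for a cell state.

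AW112010 was lowest in cluster 3 (inflammatory-like, led by Cxcl3, Ppbp, Areg, Ccl24 and Il1a), with 19.7 CPM in Fcmr+/+ cells and 35.1 CPM in Fcmr-/- cells. Thinned to 5000 UMIs, 9.87% of its Fcmr+/+ cells and 14.2% of its Fcmr-/- cells still had a UMI, at median depths of 16961 and 11224 before thinning. Clusters 4 (led by Tfrc, Cnrip1, Gas6, Ednrb and Cela1), 8 (Mfge8, Plpp3, Wfs1, Ctsk and Atp6v0d2) and 11 (Adm, Pdgfa, Rassf8, Bhlhe41 and Dct) were also low. They ranged from 20.9 to 27.1 CPM in Fcmr+/+ cells and from 41.6 to 50.7 CPM in Fcmr-/- cells, and neighbors in the order of these 3 clusters and cluster 3 had overlapping intervals within each library. From the lowest to the highest cluster, the level rose 18.3-fold in Fcmr+/+ cells and 19.3-fold in Fcmr-/- cells.

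Clusters 1, 6 and 7 were intermediate. Cluster 1, led by Ccl17, Il1r2, Retnla, Ifitm1 and Ear2, had 63.1 and 109 CPM in Fcmr+/+ and Fcmr-/- cells. Cluster 7, led by Acp5, Cyp4f18, Apoe, Ddit4 and Cirbp, had 63.9 and 91.6 CPM. Cluster 6 (hypoxic-like, with the hemoglobin genes Hbb-bs and Hba-a1 leading, then Adm, Rhov and Hspb1) had 38.5 and 119.9 CPM. Cluster 1 lay above cluster 6 in Fcmr+/+ cells, while their intervals overlapped in Fcmr-/- cells.

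AW112010 was higher in Fcmr-/- cells in all 11 clusters at this resolution, with intervals that did not overlap in any of the 11. These intervals cover counting error only, and cells differed by more than that. What free RNA added to each cluster was not measured either. Gaps of the lowest clusters were small in CPM, such as 19.7 against 35.1 CPM in cluster 3. In cluster 2, the 101 Fcmr+/+ cells held 694 AW112010 UMIs, and 9 of these cells had 20 or more each. Over the 10 clusters with at least 50 cells of each library the median log2 ratio was 0.84, well under the 2.54 of the whole libraries. The smallest was 0.18 in cluster 2. The largest was 3.11 in cluster 5 (dividing-like, led by Cenpf, Nusap1, Prc1, Pbk and Hist1h1b), with 38.0 CPM in Fcmr+/+ cells and 336 CPM in Fcmr-/- cells. A list of interferon gamma response genes, described below, also differed in cluster 5, at 772 CPM in Fcmr+/+ and 2032 CPM in Fcmr-/- cells. At a finer resolution, 12 of 13 clusters were higher in Fcmr-/- cells, and the lowest log2 ratio was -0.31.

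**Figure D2:**
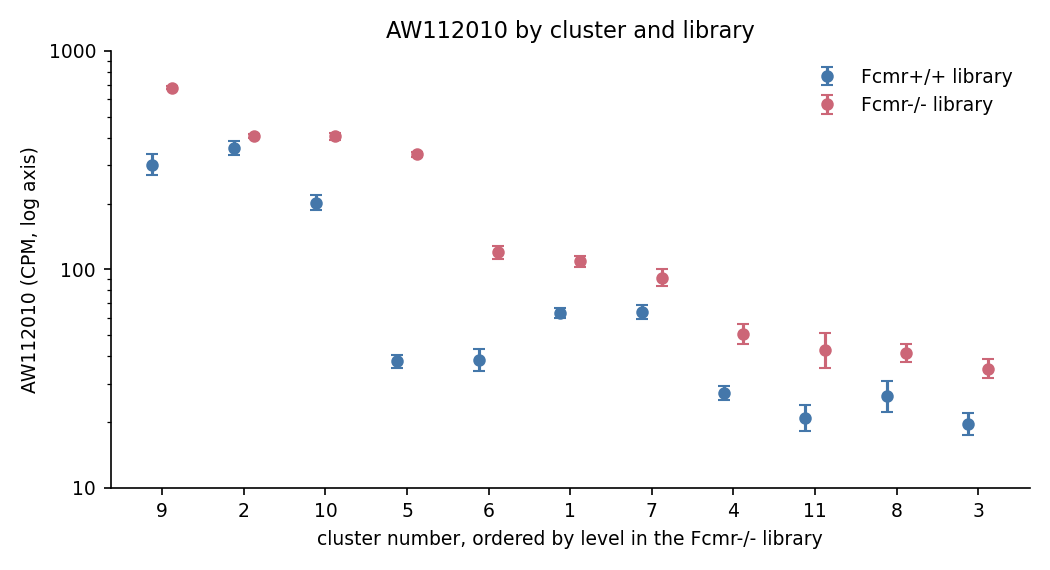
AW112010 in each cluster (CPM, log axis) for Fcmr+/+ and Fcmr-/- cells, with exact 95% Poisson intervals and clusters ordered by their Fcmr-/- level. Clusters 9, 2 and 10 are the highest in both libraries, and cluster 5 has the widest gap, 38.0 against 336 CPM.

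Both the make-up of the libraries and the levels within clusters differed. Clusters were weighted by their share of a library's UMIs. Fcmr-/- cluster levels combined in the proportions of the Fcmr+/+ library would give 133 CPM. Cluster 5, at 336 CPM in Fcmr-/- cells, weighs heavily in this value. It held 11.4% of Fcmr+/+ cells, at a median of 28152 UMIs, the deepest cluster. The value without cluster 5 was not computed. Fcmr+/+ cluster levels in the proportions of the Fcmr-/- library would give 154 CPM, and 49.4 and 292 CPM were measured. The value of 154 CPM takes the levels of clusters 2 and 9 from only 101 and 44 Fcmr+/+ cells. Neither combined value was recomputed for other clusterings. Without clusters 2 and 9, AW112010 was at 42.4 CPM in 6207 Fcmr+/+ cells and 158 CPM in 5499 Fcmr-/- cells, a log2 ratio of 1.88.

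T cells also express AW112010, and markers of T and NK cells moved with these values. Summed over the 22 genes of that list in the files, they made up 13.4 CPM in Fcmr+/+ cells and 44.6 CPM in Fcmr-/- cells, and 2 of them, Gzma and Ncr1, were at 0 in Fcmr+/+ cells. Cd3d, a CD3 chain of the T cell receptor complex, had 31 and 280 UMIs, and Gzmb, a cytotoxic granule protease, had 10 and 619. Cd4 alone on the list was lower in Fcmr-/- cells, with 255 and 191 UMIs. The genes of the list with the most UMIs were Ms4a4b in Fcmr+/+ cells, with 470, and Klrk1 in Fcmr-/- cells, with 1132. In cells without a UMI of the list, AW112010 was at 42.4 CPM (5445 Fcmr+/+ cells) and 235 CPM (6428 Fcmr-/- cells), a log2 ratio of 2.44. The ratio was thus close to that of all cells where none of these markers was detected. Cells without a Cd3d, Cd3e, Cd3g, Nkg7 or Gzmb UMI numbered 6337 and 7894. Most cells with a UMI of the list thus had none of these genes.

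In Fcmr-/- cells AW112010 rose with the number of T and NK cell UMIs in a cell. Fcmr-/- cells with such a UMI were also deeper, with a median of 16676 UMIs in all against 12354. AW112010 rose with depth in Fcmr-/- cells, and the part of depth here was not tested. AW112010 was at 424 CPM at 1 T and NK cell UMI, 505.5 CPM at 2 to 3, 619 CPM at 4 to 9 and 998 CPM at 10 or more, a class of 49 cells. Fcmr+/+ cells had 57.0, 115, 266 and 173 CPM in the same classes, the last of 14 cells and lower than the one before. Within clusters, leaving these cells out changed some ratios. The log2 ratio fell to 0.02 in cluster 2 and to 0.20 in cluster 1, where the intervals of the libraries then overlapped in both clusters, and rose to 1.78 in cluster 10, where the Fcmr+/+ level fell from 202 to 105 CPM. Cluster 5 kept 30.6 and 248 CPM, a log2 ratio of 2.98. Cluster 5 also held 37 of the 41 Ifng UMIs of the Fcmr-/- library. The part of T and NK cells in these values was not tested.

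AW112010 followed the summed UMIs of interferon gamma (type II) response genes more steadily than those of type I response genes. Thinned cells were divided into 5 groups, as even in size as tied values allowed, by their summed UMIs of a type II list (32 genes, among them the Gbp family, Cxcl9, Iigp1 and Irf1) and of a type I list (48 genes, 47 of them in the files, among them the Ifit family, Rsad2, Isg15 and Irf7). Which interferon induced each gene was not tested in these cells, so the lists do not separate the interferons. Abundant genes weigh most in such sums. Ifitm3 and Ifi27l2a made up 1287 and 1127 of the 4708 CPM of the type I list in Fcmr+/+ cells. In Fcmr-/- cells they made up 1812 and 1107 of 6625 CPM. Psmb8 was the largest part of the type II list, with 237 of 813 CPM and 418 of 1871 CPM. Sums without these genes were not tried. From the lowest to the highest type II group, AW112010 had 38.6, 53.3, 102, 217 and 672 CPM in Fcmr-/- cells. In Fcmr+/+ cells the values were 26.6, 33.4, 51.9, 71.7 and 416 CPM. AW112010 thus rose with every step in both libraries. The log2 ratio between libraries within a group ran from 0.52 to 1.58. The top group held 2307 Fcmr-/- cells and 256 Fcmr+/+ cells.

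By groups of the type I list the libraries differed in shape. Fcmr-/- cells had 80.2, 171, 261, 347 and 389 CPM. Fcmr+/+ cells had 41.4, 37.8, 54.9, 40.8 and 129 CPM, up in the middle group, back down in the next and highest in the last. When cells were divided at the medians of both lists, at 22 type I and 4 type II UMIs, cells high for type I alone had 38.1 CPM in the Fcmr+/+ library and 55.0 in the Fcmr-/- library. Cells high for type II alone had 74.2 and 316 CPM, cells high for both had 124 and 436 CPM, and cells low for both had 26.3 and 41.8 CPM. A high type II sum alone thus went with more AW112010 than a high type I sum alone in both libraries. Cells high for both were 18.7% of the Fcmr+/+ library and 43.9% of the Fcmr-/- library.

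**Figure D3:**
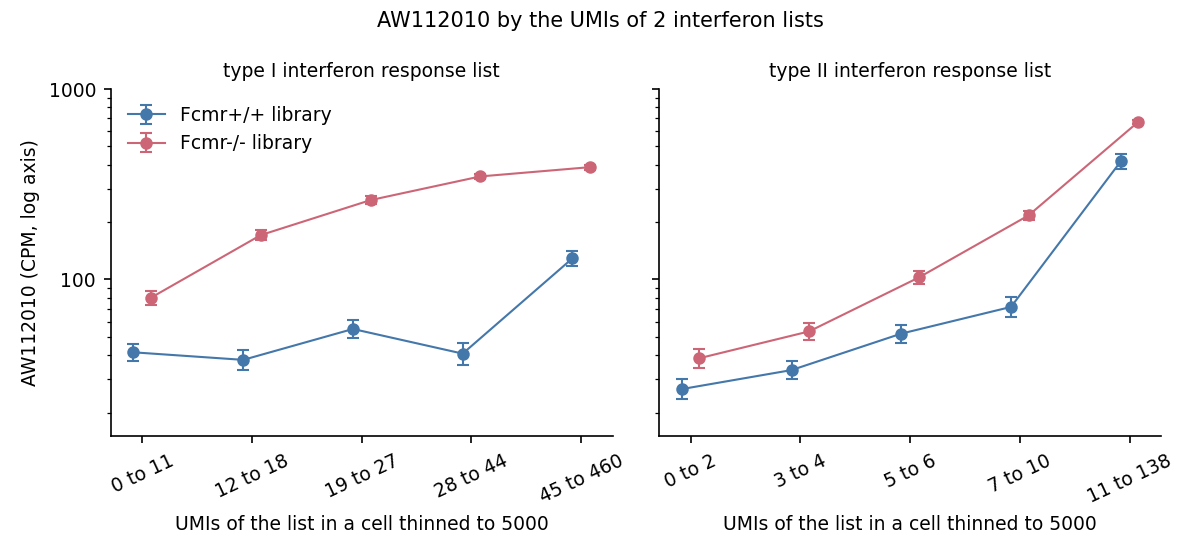
AW112010 (CPM, log axis, exact 95% Poisson intervals) in thinned cells in 5 groups by their UMIs of the type I list (left) and the type II list (right). It climbs from 38.6 to 672 CPM over the type II groups of Fcmr-/- cells, while Fcmr+/+ cells stay between 37.8 and 54.9 CPM over the first 4 type I groups.

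Genes were then ranked by how closely they followed AW112010 from cell to cell, as Pearson's r of ln(1 + UMIs per 10000) over all cells of a library. The cells of a library share its sort, its droplet run and its range of depths, so r is given as a description and without a p. Of 5233 genes with at least 20 CPM in Fcmr+/+ cells, 18 (0.344%) reached an r of 0.2, and 0 reached -0.2. Of 5216 such genes in Fcmr-/- cells, 122 (2.34%) reached 0.2 and 22 (0.422%) fell to -0.2 or less. The median r was -0.00 and 0.02. The 2 lists overlapped in 17 genes, 94.4% of the Fcmr+/+ list and 13.9% of the Fcmr-/- list. Of the 122 genes, 107 reached 20 CPM in Fcmr+/+ cells, and some of the others also had an r over 0.2 there, among them Cxcl9 at 0.27 and Iigp1 at 0.24. The exception among the 18 was Ly6c2, a surface protein of monocytes, with 0.23 in Fcmr+/+ and 0.18 in Fcmr-/- cells. The monocyte marker list that holds Ly6c2 had a median r of 0.05 in Fcmr+/+ cells, with 1 of 8 tested genes at 0.2 or more. In Fcmr-/- cells its median was -0.10, with 0 of 7 at 0.2 or more and 2 of 7 at -0.2 or less.

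The same 3 genes followed AW112010 most closely in both libraries. Gbp2, a guanylate-binding protein, had an r of 0.40 in Fcmr+/+ and 0.57 in Fcmr-/- cells. Ly6a, the surface protein Sca-1, had 0.33 and 0.59. H2-K1, a classical MHC class I heavy chain, had 0.29 and 0.51. In Fcmr+/+ cells the next 12 were H2-T22, H2-Q7, B2m, Irf7, Ccl5, Cd52, Ly6c2, Ms4a4c, Zbp1, Psmb8, Ly6e and Tap1, with r from 0.27 down to 0.22. In Fcmr-/- cells the genes that came next included Fcgr4, Psmb8, Fgl2, Psmb9, Pla2g16, Cxcl9, Il18bp, H2-T23, Fam26f, H2-D1 and Gbp7, from 0.50 down to 0.42. Many are parts of antigen presentation by MHC class I: B2m is the light chain, Tap1 carries peptides into the endoplasmic reticulum, and Psmb8 and Psmb9 are immunoproteasome subunits. The H2, Gbp, Ly6 and Ms4a genes belong to families with near-identical members, so their own counts may be split between copies.

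**Figure D4:**
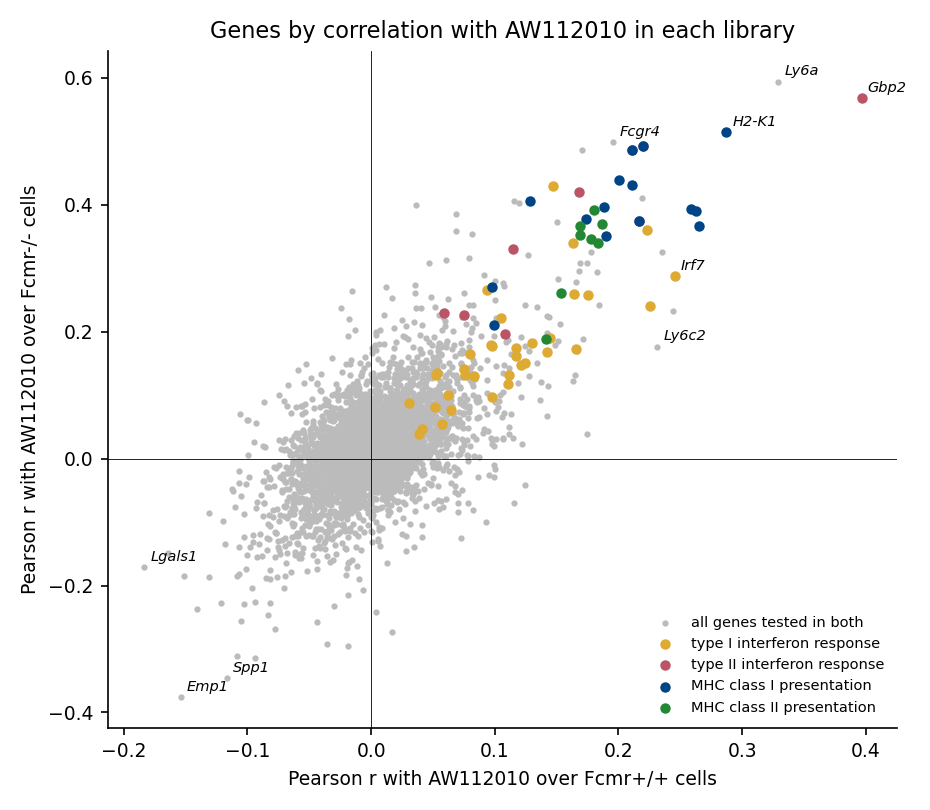
Pearson's r with AW112010 over Fcmr+/+ cells (x axis) and Fcmr-/- cells (y axis) for genes with at least 20 CPM in both libraries, with 4 gene lists in color. Ly6a, Gbp2 and H2-K1 stand at the top right, and Emp1 and Spp1 at the lower left.

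The size of these relations is given by the AW112010 class of the cell. The genes were chosen by their r in these same cells, so their rise follows from that choice and is no further result. From thinned Fcmr-/- cells with 0 AW112010 UMIs to those with 10 or more, Gbp2 went from 52.8 to 598 CPM and Ly6a from 197 to 1784 CPM. Cxcl9, which draws T cells through CXCR3, went from 40.5 to 1030 CPM, and H2-K1 from 1283 to 3402 CPM. In Fcmr+/+ cells Gbp2 went from 13.8 to 1078 CPM, Ly6a from 38.0 to 1278 CPM, Cxcl9 from 5.61 to 644 CPM and H2-K1 from 989 to 3356 CPM. Against the 206 Fcmr-/- cells with 10 or more AW112010 UMIs, the 18 such Fcmr+/+ cells thus had a similar level of H2-K1, more Gbp2, and less Cxcl9 and Ly6a. No interval was computed for these levels, and the Fcmr+/+ values rest on those 18 cells. Rsad2, a type I interferon target, was higher in the Fcmr+/+ cells with 4 to 9 UMIs, at 1682 CPM, than in those with 10 or more, at 922 CPM. T and NK cell markers also climbed with the class, from 5.01% to 38.9% of Fcmr+/+ cells with a UMI of the list and from 6.68% to 26.2% of Fcmr-/- cells.

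**Figure D5:**
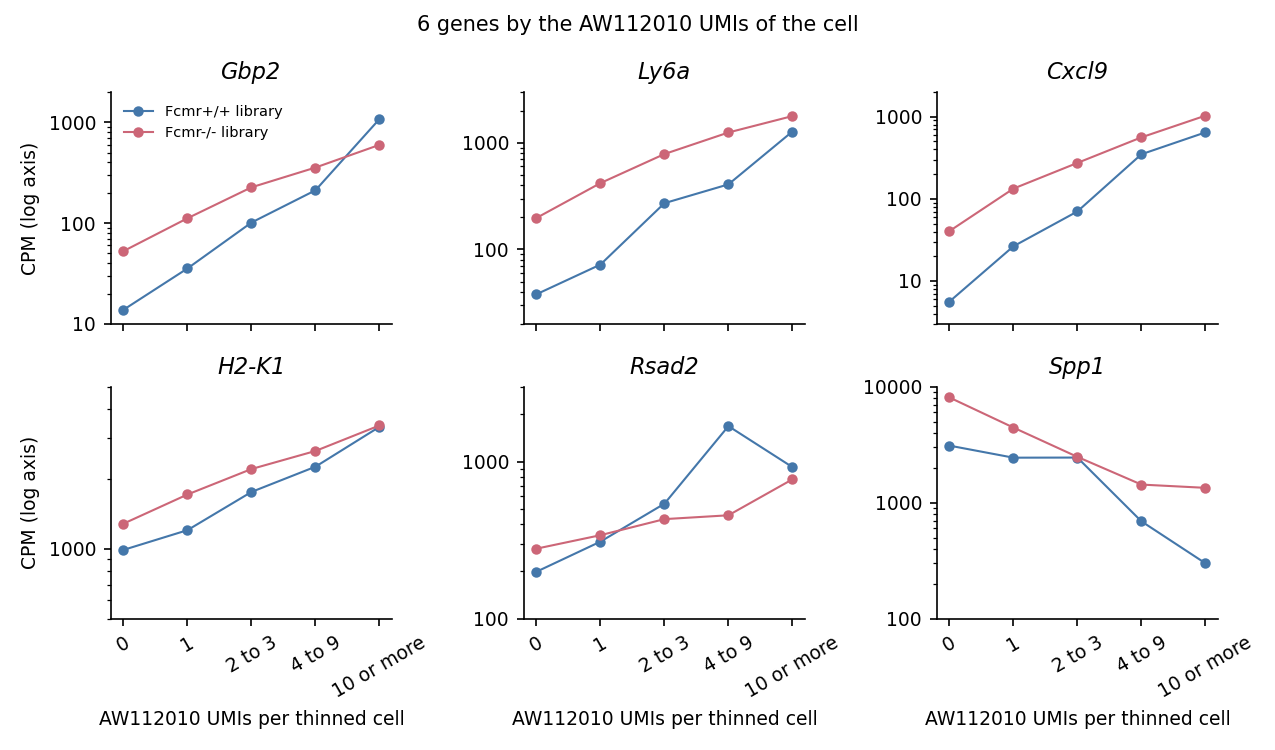
CPM (log axis) of Gbp2, Ly6a, Cxcl9, H2-K1, Rsad2 and Spp1 in thinned cells grouped by their AW112010 UMIs, for each library. The first 4 genes rise with every class in both libraries, and Spp1 is lowest in cells with 10 or more AW112010 UMIs.

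Among gene lists, those of antigen presentation and the type II response stood furthest from 0. Over all genes tested, 0.344% in Fcmr+/+ cells and 2.34% in Fcmr-/- cells had an r of 0.2 or more. The 20 CPM cut was applied in each library, so medians and counts of a list can cover different genes in the 2 libraries. Some type II genes, such as Cxcl9 and Iigp1, passed it only in Fcmr-/- cells, where they were higher. In Fcmr+/+ cells the r of those genes ran from 0.08 for Upp1 to 0.27 for Cxcl9. The type II list had a median r of 0.17 in Fcmr+/+ cells, with 4 of 9 tested genes at 0.2 or more, and 0.40 in Fcmr-/- cells, with 14 of 16. The MHC class I list, which shares Psmb8, Psmb9, Tap1 and the untested Nlrc5 with it, had 0.21 (9 of 15) and 0.39 (16 of 17). The MHC class II list had 0.17 (0 of 8) and 0.35 (7 of 8), led in Fcmr-/- cells by H2-DMa, a chaperone of peptide loading, at 0.39. The type I list had 0.10 (3 of 35) and 0.15 (9 of 40). Irf7 was its highest member in Fcmr+/+ cells, at 0.25, and had 0.29 in Fcmr-/- cells, while Irf9, another interferon regulatory factor, had 0.04 in both.

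Lists of other programs had lower medians, apart from a list of complement C1q and related macrophage markers. That list had a median r of 0.18 in Fcmr-/- cells, with 3 of 7 genes at 0.2 or more (C1qa, C1qb and C1qc), and 0.00 in Fcmr+/+ cells, with 0 of 7. In Fcmr-/- cells the median r was -0.09 for hypoxia and glycolysis (0 of 17 at 0.2 or more), 0.09 for the cell cycle (0 of 20) and -0.05 for NF-kB and cytokine response (1 of 17, Ccl5). It was -0.02 for immediate-early and heat shock genes, and -0.09 for lipid-associated and tissue remodelling genes (3 of 16 at -0.2 or less). Over all genes tested in Fcmr-/- cells, 0.422% were at -0.2 or less. In Fcmr+/+ cells the medians of these 5 lists ran from -0.06 to 0.01. A resident-type and scavenger list had a median of -0.08 in Fcmr+/+ and -0.05 in Fcmr-/- cells. Some of these medians rested on differences between clusters. With each gene's cluster mean taken away, the Fcmr-/- median was 0.01 for hypoxia and glycolysis, -0.01 for the cell cycle and 0.07 for the C1q list.

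Genes that were lower where AW112010 was higher were clearest in Fcmr-/- cells. Emp1, an epithelial membrane protein, had an r of -0.38 in Fcmr-/- and -0.15 in Fcmr+/+ cells. Spp1, which encodes the secreted matrix protein osteopontin, had -0.35 and -0.12. The next in Fcmr-/- cells were Cd9, Anxa2, S100a4, Fn1, S100a6, Ctsl, Anxa1 and Ahnak, from -0.31 to -0.26, among them annexins, S100 calcium-binding proteins and fibronectin. S100a6 had 0.02 in Fcmr+/+ cells. In Fcmr+/+ cells the lowest was Lgals1, galectin-1, at -0.18, followed by Por, Emp1, Pf4, Clec4d, Cd36, Ctsd, Osbpl8, Hmox1 and Anxa5, up to -0.12. Between Fcmr-/- cells with 0 and with 10 or more AW112010 UMIs, Spp1 went from 8073 to 1342 CPM and Emp1 from 602 to 202 CPM. Both were chosen by their low r in these cells.

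AW112010 had more UMIs in Fcmr-/- cells, and r grows with the number of UMIs. When its Fcmr-/- UMIs were drawn down at random to the Fcmr+/+ CPM, 77 genes kept an r of 0.2 or more, and the list medians were 0.32 for type II, 0.30 for MHC class I, 0.28 for MHC class II and 0.11 for type I. Ly6a then had 0.48, Gbp2 0.47 and H2-K1 0.40. These values still lay above those of Fcmr+/+ cells, by the least for type I. Only AW112010 was drawn down, and the other genes kept their Fcmr-/- UMIs. Ly6a, Gbp2, H2-K1 and the sums of these lists were all at a higher CPM in Fcmr-/- than in Fcmr+/+ cells. The comparison thus did not remove the difference in UMIs, and how much of the remaining excess in r came from it was not tested.

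Part of the correlation was carried by differences between clusters. With each gene's cluster mean taken away, 7 genes in Fcmr+/+ cells and 39 in Fcmr-/- cells kept an r of 0.2 or more. Gbp2 kept 0.34 and 0.40, and Ly6a kept 0.27 and 0.44. Within single clusters, AW112010 followed the type II list most closely in Fcmr-/- cells of the dividing-like cluster 5, with an r of 0.76 over 726 cells, against 0.39 over 722 Fcmr+/+ cells. AW112010 had 6215 UMIs in these Fcmr-/- cells and 824 in these Fcmr+/+ cells. The type II list was at 2032 CPM in the former and 772 CPM in the latter. Whether cluster 5 pooled dividing cells of different interferon states was not tested. The r with the type II list was 0.56 over the Fcmr-/- cells of cluster 9. In cluster 2 it was 0.47 over Fcmr-/- cells and 0.49 over 101 Fcmr+/+ cells. The lowest, in the inflammatory-like cluster 3, were 0.07 in Fcmr+/+ and 0.14 in Fcmr-/- cells, where AW112010 itself had only 281 and 393 UMIs. In the type I interferon-high-like cluster 10, the r with the type II list was 0.43 and 0.42, and that with the type I list 0.15 and 0.11.

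The genes to which AW112010 has been tied had an r near 0 with it here. Il10, the anti-inflammatory cytokine, was at 116 CPM in Fcmr+/+ cells and 49.6 CPM in Fcmr-/- cells, and its r with AW112010 was -0.05 and -0.03. Kdm5a was at 40.6 and 37.1 CPM, with an r of 0.05 and 0.02. Il12b, a subunit of interleukin 12, had 29 and 55 UMIs in all, too few for a relation between cells to be seen. By AW112010 class of thinned cells, from 0 UMIs to 10 or more, Il10 was at 112, 94.5, 59.5, 3.92 and 55.6 CPM in Fcmr+/+ cells and at 58.9, 47.6, 29.9, 47.8 and 37.9 CPM in Fcmr-/- cells. Il10 was thus highest in cells without AW112010 in both libraries, with no steady order above 3 UMIs, where the Fcmr+/+ classes held 51 and 18 cells.

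The nearest neighbors of AW112010 on chromosome 19 were low or little different between the libraries. The nearest listed gene before it, the non-coding Gm28347, had 1 and 2 UMIs, and the nearest after it, Ms4a8a, was at 14.6 CPM in Fcmr+/+ and 17.2 CPM in Fcmr-/- cells. Of the 19 Ms4a genes on this chromosome in the files, which encode membrane proteins, Ms4a4c differed most, with 69.5 and 160 CPM and an r of 0.23 and 0.24 with AW112010, at a distance of 348962 bases. Ms4a6c had 494 and 543 CPM, with an r of 0.17 and 0.31, and Ms4a6b had 201 and 218 CPM, with an r of 0.11 and 0.28. In Fcmr-/- cells both followed AW112010 more closely than Ms4a4c did, though their levels differed little between the libraries. Ms4a7 had 550 and 624 CPM, with an r of 0.00 and 0.18, and Ms4a10, Ms4a15 and Ms4a18, which lie between AW112010 and Ccdc86, had at most 1 UMI.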

How the data were processed

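Single-cell libraries of sorted TMPs were compared, 1 per genotype. The values are raw UMI counts for each gene in each cell, as the authors deposited them, without normalization. The submitters' processing notes name Cell Ranger, the GRCm38 build and Seurat 2.1.0. Cells with 200 to 7000 genes and at most 30% mitochondrial UMIs were kept, and genes found in at least 3 cells. The upper limit on genes was the treatment of doublets, and no doublet caller was run.

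UMIs were summed over cells for CPM, and log2 ratios took 1 CPM added. For clusters, Seurat 5.3.0 (R 4.3.3) was given 1338 variable genes, log values per 10000 UMIs, 10 principal components, 30 neighbors and a resolution of 0.8. Other steps used Python 3.11.15, numpy 2.4.6 and scipy 1.17.1, and were tested on simulated data. Promoters came from RefSeq, on GRCm38.p6, and gene models from GENCODE.

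The gene, the lists and the rules were chosen with earlier results of these data known. Named genes are the 15 highest and 10 lowest r per library, 5 leading genes per cluster, annotated neighbors, and list members with the highest or lowest r. Others named (Slamf8, Cd3d, Cd4, Gzma, Gzmb, Ifng, Klrk1, Ms4a4b, Ncr1, Ifitm3, Irf9, Iigp1, C1qa, C1qb, C1qc, Ms4a6b, Ms4a6c, Ms4a7, Rsad2) were chosen after their values were seen. A result that this rule would name is not reported here. Alternatives covered scaling, pseudocount, filters, thinning, clustering, the correlation measure and cells with T and NK cell markers.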

Additional observations from a re-analysis of the deposited data

How the results depend on the processing

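The higher AW112010 level in Fcmr-/- cells kept its direction under every alternative tried, at both the library and the median cluster level. The log2 ratio between libraries, 2.54, was 2.35 with 10 CPM added, 2.29 as a mean over cells, 2.52 over all deposited cells, 2.44 without cells with a T and NK cell UMI, 2.50 without the 5% of cells with the most UMIs, 2.71 without the 25% with the fewest, and 2.26 after thinning. In alternatives chosen after seeing the data it was 2.52 without cells with a Cd3d, Cd3e, Cd3g, Nkg7 or Gzmb UMI, 1.88 without clusters 2 and 9, 2.44 without cluster 5 and 2.54 without shared barcodes. The difference in the share of cells, 25.8 percentage points, was 33.1 at 10000 UMIs (5163 and 5338 cells were deep enough), 21.998 without thinning, 13.6 at 3 or more UMIs and 22.7 without cells with a T and NK cell UMI. The median ratio within clusters, 0.84, was 1.67 with genes scaled within each library and 1.197 with 20 principal components. Without the genes of the interferon lists, 9 of 10 clusters were higher in Fcmr-/- cells, and the lowest log2 ratio was -0.19. Counts of correlated genes moved most. In Fcmr+/+ cells the 18 genes became 2 with Spearman's rho, 4 after thinning, 7 after cluster means were taken away and 8 without cells with a T and NK cell UMI. In Fcmr-/- cells the 122 became 148 with Spearman's rho (118 of them shared), 57 after thinning, 39 after cluster means were taken away and 77 with AW112010 drawn down. List medians of r were recomputed under all these settings only for the type I, type II, MHC class I and MHC class II lists. Of these 68 medians, 51 stayed within 0.05 and 0 changed sign. Other lists were less stable. With cluster means taken away, the Fcmr-/- median went from 0.09 to -0.01 for the cell cycle and from -0.09 to 0.01 for hypoxia and glycolysis. The 51 include the medians at a cut of 5 or 50 CPM. Those could not move, because each list's genes and their r were kept. No paired analysis was possible because each genotype has 1 library.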

Other observations

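Few cells carried much of the AW112010 signal. Before thinning, 36 Fcmr+/+ cells (0.567%) had 20 or more AW112010 UMIs and held 26.5% of its UMIs, and 478 Fcmr-/- cells (5.98%) held 48.4%. Of the 36, 9 lay in cluster 2 and 8 in cluster 10, and of the 478, 232 lay in cluster 9. Their median depths were 22228 and 22580 UMIs, above the medians of their libraries. A UMI of the T and NK cell list was found in 44.4% and 46.0% of them, against 14.3% and 19.6% of all cells. Which genes of the list these were was not examined, and a list UMI alone does not mark a T or NK cell. The cell with the most AW112010 in each library, at 169 and 164 UMIs, had 0 UMIs of those markers.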
